A study of Mus musculus with 6 samples.

Results

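The 37 genes described here encode the degradative machinery of the lysosome. They were taken by name from 54532 genes in the data, with earlier results of these data known. They are 18 hydrolases and other soluble proteins of the lysosomal lumen, 6 proteins of the lysosomal membrane, 12 subunits of the V-ATPase (the proton pump that acidifies the organelle) and Tfeb, a transcription factor. Values are FPKM (read density over a gene's exons, corrected for their length and for library depth) from RNA-seq of sorted mouse cells. There are 6 libraries, 1 for each condition, so no difference between a pair of libraries has a replicate check. The 4 macrophage libraries are WT (C57BL/6 mice without leukemia, given PBS), WT/FE (the same with iron overload), MA9 (mice with MLL-AF9 leukemia, given PBS) and MA9/FE (mice with MLL-AF9 leukemia and iron overload). The remaining 2 are MA9 and MA9/FE leukemia cells, from leukemic mice given PBS and from leukemic mice with iron overload. The leukemia was made by transplanting GFP+ cells that carry the MLL-AF9 fusion gene, iron was given as iron dextran by intraperitoneal injection, and macrophages were sorted as GFP- F4/80+ cells. By the labels the macrophages came from spleen, by the study's methods from bone marrow, and this could not be settled. The labels do not give the age of the mice, which the study's methods state for its mice in general. The number of mice behind each library is not stated in the labels.

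Lysosomes break down proteins, lipids and glycans that reach them by endocytosis, phagocytosis and autophagy. Most soluble hydrolases carry a mannose 6-phosphate tag that sorts them to the organelle and work best at low pH, which the V-ATPase maintains by coupling ATP hydrolysis in its V1 sector to proton transport through its membrane V0 sector. Macrophages of the spleen and marrow use this system to digest aged red cells, and low pH also helps to release iron from transferrin and ferritin. TFEB is a basic helix-loop-helix factor that binds a CACGTG-centred motif, called the CLEAR element, in promoters of many lysosomal genes.

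Promoter windows of 300 bases (250 before and 50 after the RefSeq start site, GRCm38.p6) were matched for 29 of the 37 members. The motif TCACGTG, searched on both strands, was found in 10 of the 29 (34.5%), against 4.29% of 27025 mouse genes with windows of the same length. A gene counted if any of its windows held the motif. The shorter core CACGTG, which every TCACGTG contains, was found in 11 (37.9%, against 8.09%), and the palindrome TCACGTGA in 5 (17.2%, against 1.12%). The 10 members with TCACGTG were Atp6v0b, Atp6v0d1, Atp6v1a, Ctsa, Ctsd, Gaa, Glb1, Lamp1, Lgmn and Mcoln1. The promoter stretches below belong to some of these members, from the soluble, membrane and V-ATPase groups, and were chosen after the values had been seen. Each is written 5′ to 3′ on the strand of the gene, with CACGTG in capitals. Lamp1 had 4 such cores within 73 bases of its start (chr8:13159088-13159160, plus strand), Mcoln1 had 2 (chr8:3500436-3500491, plus strand) and Atp6v0b had 2 (chr4:117887330-117887377, minus strand). Ctsd (chr7:142387908-142387937, minus strand), Lgmn (chr12:102439124-102439153, minus strand) and Atp6v1a (chr16:44139373-44139402, minus strand) are shown around 1 core each.
Lamp1: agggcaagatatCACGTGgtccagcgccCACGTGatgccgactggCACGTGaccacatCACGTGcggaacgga
Mcoln1: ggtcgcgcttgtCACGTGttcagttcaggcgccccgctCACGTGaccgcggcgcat
Atp6v0b: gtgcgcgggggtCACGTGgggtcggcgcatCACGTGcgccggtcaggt
Ctsd: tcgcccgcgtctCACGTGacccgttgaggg
Lgmn: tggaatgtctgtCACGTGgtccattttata
Atp6v1a: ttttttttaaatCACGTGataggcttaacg
A match describes letters in a window and does not show that a factor binds there. Promoters of Asah1, Atp6v0d2, Atp6v1b2, Atp6v1c1, Atp6v1h, Ctsb, Ctsh and Npc1 were not matched.

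Reads were recovered from the FPKM as whole multiples of the value of 1 read, with 96.8% to 97.0% of values whole within 0.05 reads, and the depth was between 16085346 and 19518359 reads per library. The 15 macrophage markers were all above an FPKM of 1 in all 4 macrophage libraries, and their summed FPKM was 468 without leukemia or iron (WT), 846 in WT/FE, 471 (MA9) and 1122 (MA9/FE). The 8 B cell markers summed higher than that in each of these libraries (2154, 2012, 1188 and 2091), and the B cell receptor component Cd79a alone reached 415 to 802. The libraries labelled macrophages therefore held much RNA of B cell genes. The 10 neutrophil markers summed to 3.70 in WT and 2.62 in WT/FE, and to 1789 in MA9 and 907 in MA9/FE, while 7 erythroid genes summed to 87.8, 202, 247 and 488. In the leukemia libraries (MA9, then MA9/FE) the MLL-AF9 targets summed to 96.0 and 94.6, azurophil granule genes to 4499 and 3913, neutrophil markers to 2812 and 2145, B cell markers to 22.3 and 21.6, macrophage markers to 146 and 145 and the erythroid genes to 428 and 162. In bulk RNA, fewer cells of a type cannot be told apart from less RNA per cell.

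**Figure D1:**
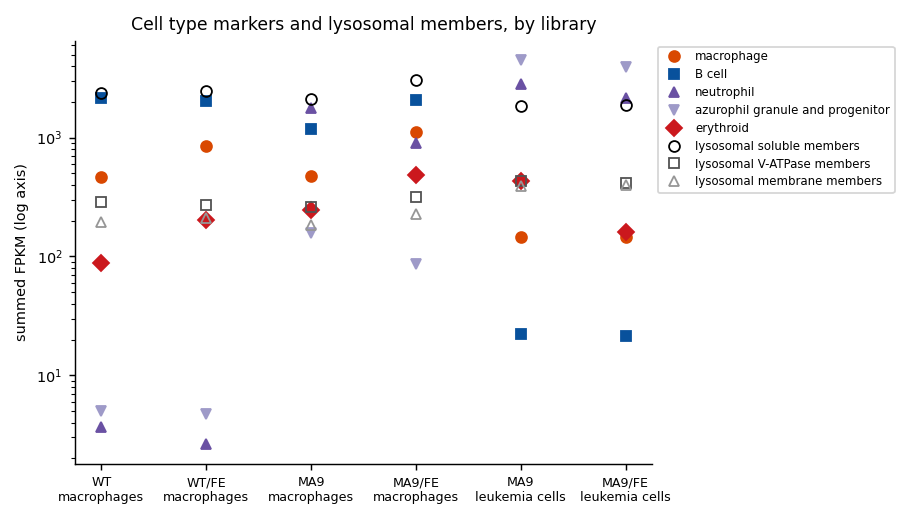
Summed FPKM (log axis) of 5 marker lists (filled symbols) and of 3 lysosomal groups (open symbols) in each of the 6 libraries. B cell markers sat above macrophage markers in all 4 macrophage libraries, and the soluble lysosomal members kept a summed FPKM between 1832 and 3069 throughout.

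The lysosomal genes were abundant in every library. At least 10 FPKM was reached in all 6 libraries by 27 of the 37 members, and the soluble group summed to 2373 (WT), 2447 (WT/FE), 2103 (MA9) and 3069 FPKM (MA9/FE) among the macrophages, against 1832 (MA9) and 1889 (MA9/FE) for leukemia cells. Psap alone gave between 31.0% and 40.8% of that sum. The 35 members whose reads were recovered as whole numbers took 0.788% of the reads in WT macrophages, 0.828% in WT/FE, 0.730% in MA9, 1.01% in MA9/FE, 0.794% in MA9 leukemia cells and 0.809% in MA9/FE leukemia cells. The 95% Wilson interval was 0.784% to 0.792% for WT and 0.726% to 0.734% for MA9 macrophages, and such intervals cover counting error only. MA9/FE macrophages had the highest share and MA9 macrophages the lowest.

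Among the soluble proteins, Psap, the precursor of the saposins that activate sphingolipid hydrolases, had the highest level in all 6 libraries. Its FPKM was 928 (WT), 973 (WT/FE), 858 (MA9) and 1164 (MA9/FE) among the macrophages, against 568 (MA9) and 608 (MA9/FE) for leukemia cells, and it ranked between 23 and 54 among all genes of a library. Both leukemia values were below all macrophage values. Ctss, a cysteine protease that processes the invariant chain of MHC class II in antigen-presenting cells, had the second highest mean level, in the same order of libraries here and below, with 475, 434, 310 and 544 in macrophages and 111 and 123 in leukemia cells. In both leukemia libraries it was below Ctsz, Hexa (183 and 175) and Grn (138 and 132). Ctsz, a carboxypeptidase, was almost flat by comparison, at 280, 266, 263 and 363 in macrophages and 263 and 265 in leukemia cells. The leukemia values of Ctsz lay within the macrophage range.

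Of the membrane proteins, Lamp1, a heavily glycosylated coat protein of the lysosome, had the highest mean level over the 6 libraries. Its FPKM was 76.8 (WT), 82.9 (WT/FE), 73.7 (MA9) and 98.4 (MA9/FE) among the macrophages, against 247 and 242 for the leukemia libraries. Cd68, a LAMP family member often used as a macrophage marker, was higher in leukemia cells too (100 and 107) than in the macrophage libraries (80.8, 84.1, 71.9 and 91.6), and it was above Lamp1 in WT and WT/FE macrophages. Lamp2, which is also needed for chaperone-mediated autophagy, was at 8.90, 9.32, 11.1 and 11.0 in macrophages and at 24.1 and 24.8 in leukemia cells. For these 3 genes both leukemia libraries were above all 4 macrophage libraries, as were 32.7% of 18397 genes with 10 reads in a library.

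In the V-ATPase, Atp6v0b, a proteolipid of the V0 ring, had the highest mean level, with 77.1 (WT), 72.8 (WT/FE), 60.1 (MA9) and 83.7 (MA9/FE) among the macrophages, against 78.0 and 77.6 for leukemia cells, within the macrophage range. Atp6ap1, an accessory subunit, was at 55.8, 58.7, 44.7 and 60.8 in macrophages and at 71.0 and 70.1 in leukemia cells. The d subunit joins the rotor of V1 to the V0 ring and has 2 isoforms, of which d2 is known from osteoclasts. Atp6v0d1 was at 46.0, 38.7, 42.2 and 55.5 in macrophages and at 80.7 and 73.2 in leukemia cells, above Atp6v0b in MA9 leukemia cells. Atp6v0d2 had between 1 and 5 reads in each library, the only member under 10 reads in all 6, so it was left out of every comparison and 36 members were compared. The d1 isoform thus gave nearly all d subunit RNA in each library. Tfeb, the only regulator among the members, was at 26.3 (WT), 24.6 (WT/FE), 20.7 (MA9) and 27.4 (MA9/FE) among the macrophages, against 5.67 and 7.35 for leukemia cells. Its leukemia values lay below all macrophage values.

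**Figure D2:**
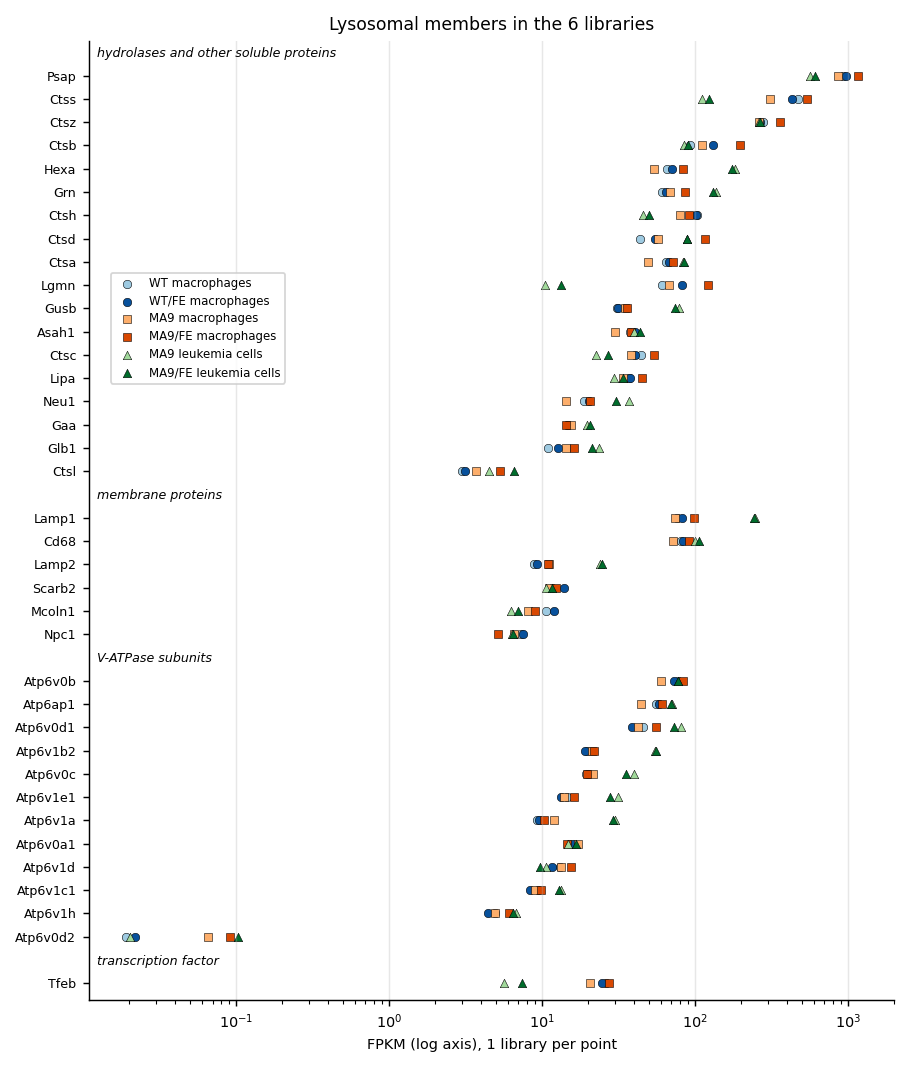
FPKM (log axis) of the 37 members, 1 point per library, sorted within each group by mean level. Circles are WT and WT/FE macrophages, squares MA9 and MA9/FE macrophages and triangles leukemia cells. Lamp1, Hexa and Gusb lie to the right in leukemia cells, and Lgmn, Ctss and Tfeb to the left.

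The first question was whether iron overload moved the lysosomal genes in macrophages. In mice without leukemia no member differed by a fold of 2, and 22 of 36 (61.1%) were higher in WT/FE by any amount, against 45.3% of all genes. This count was 18 of 36 with the trend on gene length removed. In mice with leukemia 1 of 36 members reached a fold of 2. There 31 of 36 (86.1%) exceeded their MA9 value in MA9/FE macrophages by any amount, most of all several proteases, against 52.6% of all genes. Differences are given as log2(FPKM + 1) after scaling of each pair by TMM (trimmed mean of M values), with the counting standard error (SE) from the reads, which holds no variation between mice. Differences of low genes are understated on this scale.

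Between WT/FE and WT macrophages, 0 of 36 members reached a fold of 2 in either direction, against 1.27% of 16754 genes. Of the members 22 were higher in WT/FE by any amount (61.1%), against 45.3% of all genes. With the trend on gene length removed, 18 of 36 were higher. The median counting SE of the members was 0.046, so many of the small differences lie within counting error. The median log2 difference was 0.05 for the soluble proteins, 0.07 for the membrane proteins and -0.10 for the V-ATPase, against -0.02 for all genes. The largest differences were those of Ctsb (0.49, SE 0.019), Lgmn (0.41, SE 0.037) and Ctsd (0.30, SE 0.045). Ctsb is a cysteine protease that cuts a wide range of proteins. The other members lay between -0.26 (Atp6v0d1) and 0.24 (Scarb2, the receptor that carries glucocerebrosidase to the lysosome).

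Between MA9/FE and MA9 macrophages, 1 of 36 members, Ctsd, reached a fold of 2, against 2.45% of 16512 genes. Ctsd (ENSMUSG00000007891, chr7:142375911-142388038 in GENCODE M21, minus strand), the main aspartic protease of the lysosome, was at 44.0 (WT), 54.9 (WT/FE), 57.3 (MA9) and 116 (MA9/FE) among the macrophages, against 88.2 (MA9) and 88.4 (MA9/FE) for leukemia cells. MA9/FE macrophages were above the other 5 libraries. The MA9/FE minus MA9 difference was 1.04 (SE 0.037), a fold of 2.06, and the fold was 1.998 without TMM scaling and 1.971 with the trend on gene length removed, both just short of 2. The members were higher by any amount in 86.1% of cases, against 52.6% of all genes, and the medians were 0.50 for the 18 soluble proteins, 0.18 for the membrane proteins and 0.24 for the V-ATPase, against 0.02 for all genes.

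Of the soluble proteins 17 of 18 exceeded their MA9 value in MA9/FE macrophages, and the exception was Gaa, the acid glucosidase that degrades glycogen, at -0.07 (SE 0.059). After Ctsd came Lgmn (0.89, SE 0.035), the asparaginyl endopeptidase that activates other proteases, Ctsb (0.87, SE 0.017), Ctss (0.85, SE 0.022) and Hexa (0.68, SE 0.044), the alpha subunit of beta-hexosaminidase. Lgmn was at 61.4 (WT), 82.7 (WT/FE), 67.3 (MA9) and 122 (MA9/FE) among the macrophages, against 10.4 and 13.3 for leukemia cells. Ctsb was at 92.3 (WT), 131 (WT/FE), 112 (MA9) and 198 (MA9/FE) among the macrophages, against 84.5 and 90.1 for leukemia cells. Both proteases were thus highest in MA9/FE macrophages of the 6 libraries. Of the membrane proteins, Lamp1 differed by 0.46 (SE 0.033) and Cd68 by 0.39 (SE 0.050), whereas the cholesterol exporter Npc1 was lower, at -0.26 (SE 0.062). In the V-ATPase 8 of 11 tested subunits were higher, from Atp6v0b (0.52, SE 0.042) and Atp6ap1 (0.48, SE 0.040) down, and Atp6v0a1 (-0.18), Atp6v1a (-0.16) and Atp6v0c (-0.08) were lower. Tfeb differed by 0.43 (SE 0.043).

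Marker lists moved along with these values. From MA9 to MA9/FE macrophages the summed macrophage markers went from 471 to 1122, B cell markers from 1188 to 2091, erythroid genes from 247 to 488 and neutrophil markers from 1789 to 907, with the 8 B cell genes at 36.7 to 415 FPKM in MA9 and none of the macrophage or B cell markers at 0. From WT to WT/FE the macrophage markers went from 468 to 846, erythroid genes from 87.8 to 202, B cell markers from 2154 to 2012 and neutrophil markers from 3.70 to 2.62. Azurophil granule genes went from 158 to 86.1 in the MA9 pair and from 5.03 to 4.75 in the WT pair. The part of these lists in the lysosomal differences was not tested.

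The WT and MA9 pairs share no library. Of 36 members, 18 were higher with iron in both pairs, against 20.9% of 15810 genes. A further 13 were lower in WT/FE and higher in MA9/FE (36.1%, against 32.4% of these genes), 4 were the opposite and 1 was lower in both. Over the 4 macrophage libraries, limma with an additive model of leukemia and iron called 0 of 16268 genes for iron (0%) and 0 of 36 members at an adjusted p of 0.05, with the lowest adjusted p of a member at 0.958. At an unadjusted p under 0.05, 592 genes and 3 members passed. The model has 1 residual degree of freedom, beside 4.70 that limma borrows across genes.

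**Figure D3:**
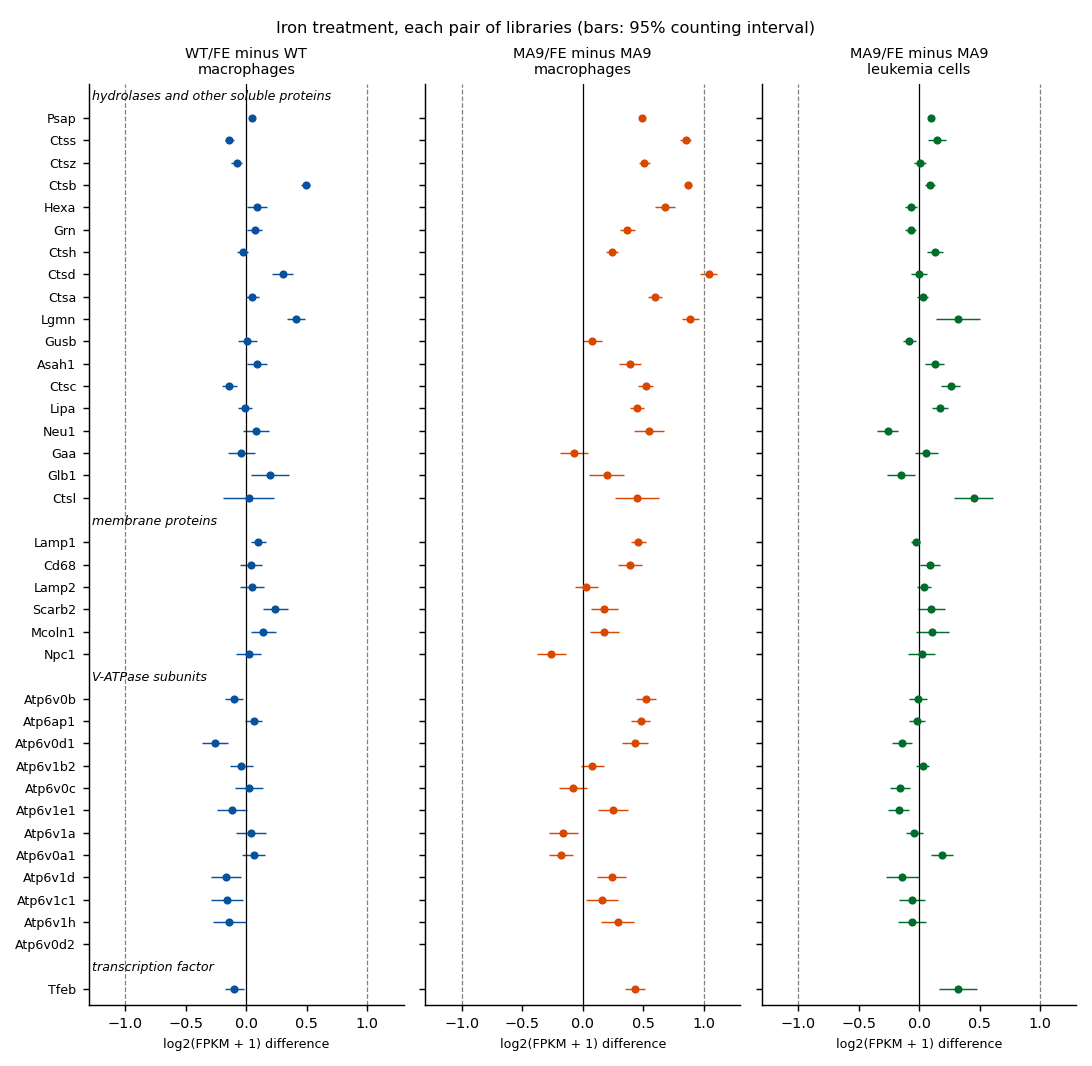
Difference in log2(FPKM + 1) between iron-treated and PBS libraries for 36 members in 3 pairs of libraries, with 95% counting intervals (1.96 SE) and dashed lines at a fold of 2. In the MA9 macrophage pair 17 of 18 soluble members lie to the right of 0 and Ctsd lies at 1.04, while no member reaches a fold of 2 in the other pairs.

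The second question was what leukemia did to the lysosomal genes of macrophages. Without iron, MA9 and WT macrophages differed little, with 0 of 36 members past a fold of 2 against 4.70% of 16926 genes. Of the members 41.7% were higher in MA9 by any amount, against 50.1% of all genes, and the medians were -0.08 for the soluble proteins, -0.08 for the membrane proteins and 0.00 for the V-ATPase. Ctss had the largest difference, -0.59 (SE 0.021), and Ctsd the largest in the other direction, 0.39 (SE 0.044). With iron, Ctsd was the 1 member of 36 past a fold of 2 (1.09, SE 0.038), against 4.63% of 16571 genes, and 83.3% of the members were higher in MA9/FE than in WT/FE macrophages, against 52.4% of all genes. The medians were 0.32 for the soluble proteins, 0.01 for the membrane proteins (-0.03 with scaling by the median of ratios) and 0.23 for the V-ATPase. Both comparisons share their libraries with the iron comparisons above, so their differences are not separate evidence. In the additive limma model the leukemia term was called for 188 genes (1.16% of 16268) and 0 of 36 members, with Ctsd (0.75, SE 0.22) at the lowest adjusted p of 0.213, and 2439 genes and 2 members had an unadjusted p under 0.05. The summed neutrophil markers (1789 and 907 in MA9 and MA9/FE, against 3.70 and 2.62 in WT and WT/FE macrophages) separate the same libraries. So do the summed azurophil granule genes (158 and 86.1, against 5.03 and 4.75). The part of either list in these differences was not tested.

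In the leukemia cells iron overload went with small differences. In the pair of leukemia libraries, 0 of 36 members reached a fold of 2, against 0.863% of 15415 genes, and 58.3% were higher by any amount, against 50.4%. The largest differences were those of Ctsl (0.45, SE 0.082), a cysteine protease at only 4.51 and 6.53 FPKM here, and of Lgmn (0.32, SE 0.092) and Tfeb (0.32, SE 0.080). The sialidase Neu1 had the lowest value, -0.26 (SE 0.043), from 36.9 to 30.7 FPKM. The V-ATPase median was -0.06, and 2 of 11 subunits were higher. Between these libraries the summed erythroid genes went from 428 to 162, with 0 of 7 higher, 5 lower by a fold of 2 and a median of -1.11, and neutrophil markers went from 2812 to 2145. Their part was not tested.

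The third question was how leukemia cells and macrophages of leukemic mice differ. Among the members called in the limma model below, leukemia cells had more RNA of Hexa, Gusb, Neu1, Grn, Lamp1, Lamp2, Atp6v1a, Atp6v1b2, Atp6v1e1 and Atp6v0c, and less of Lgmn, Ctss, Ctsc, Ctsh, Ctsb, Psap and Tfeb. Kind of cell cannot be told apart here from organ (bone marrow against the labelled spleen), from the sort or from the B cell RNA in the macrophage libraries. Without iron, 8 of 36 members were higher in leukemia cells by a fold of 2 (against 7.41% of 17044 genes) and 3 were lower (against 12.6%). With iron, 6 were higher (against 9.56% of 16842 genes) and 4 lower (against 13.2%). In levels, both leukemia libraries were above all 4 macrophage libraries for 18 of 37 members (48.6%, against 32.7% of 18397 genes) and below them for 9 (24.3%, against 34.5%).

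The limma model of cell kind and iron over the 4 libraries from leukemic mice called 17 of 36 members at an adjusted p of 0.05. Of these 10 were higher in leukemia cells (27.8%, against 16.8% of 16291 genes) and 7 lower (19.4%, against 20.9%). The share of members called higher was thus above that of all genes and the share called lower near it. At least 10 FPKM was reached in every library by 27 of 37 members, and shares over genes of a like level were not computed. The 7 lower were 6 soluble proteins and Tfeb, and the 10 higher were 4 soluble proteins, 2 membrane proteins and 4 V-ATPase subunits. The 1 residual degree of freedom of this model is the difference between the iron responses of the 2 kinds of cell. With no minimum of reads, which adds genes at low counts to the fit, 8 members stayed called, namely Lgmn, Ctsh, Tfeb, Gusb, Lamp2, Atp6v0c, Atp6v1a and Atp6v1b2.

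Lgmn (ENSMUSG00000021190, chr12:102394084-102439813, minus strand) had the largest difference of the members. It was lower in leukemia cells by a fold of 6.09 without iron (log2 -2.61, SE 0.074) and 8.78 with iron (log2 -3.13, SE 0.065), and the limma difference was -2.89 (SE 0.19, adjusted p = 0.00049). Ctss fell by 1.86 on the log2 scale (SE 0.21, limma adjusted p = 0.0028). Both proteases act in antigen processing. The MA9 and MA9/FE macrophage libraries held B cell markers at 1188 and 2091 FPKM in sum, against 22.3 and 21.6 in the leukemia libraries. For macrophage markers these sums were 471 and 1122, against 146 and 145. The part of either list in the differences was not tested. Of the other cathepsins, Ctsc, the dipeptidyl peptidase that activates granule serine proteases, fell by 0.91 (adjusted p = 0.0097 in limma), Ctsh, an aminopeptidase, by 0.87 and Ctsb by 0.82, and Psap fell by 0.82. Ctsa, Ctsd, Ctsl and Ctsz were not called. Ctsd was 0.59 higher in leukemia cells without iron and 0.42 lower on the log2 scale with iron, its value in MA9/FE macrophages being the one that moved.

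Hexa, by contrast, was at 65.6 (WT), 70.4 (WT/FE), 54.1 (MA9) and 84.2 (MA9/FE) among the macrophages, against 183 and 175 for leukemia cells. Its limma difference was 1.34 (SE 0.22, adjusted p = 0.0085). The glycosidases Gusb (beta-glucuronidase, 1.04, SE 0.15) and Neu1 (0.88, SE 0.23) rose as well, as did Grn (progranulin, 0.75, SE 0.18), with limma adjusted p-values of 0.0055, 0.038 and 0.025. Gaa, Glb1 (beta-galactosidase), Asah1 (acid ceramidase) and Lipa (acid lipase) were not called.

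Lamp1 (ENSMUSG00000031447, chr8:13159161-13175338, plus strand) rose by 1.46 in leukemia cells (SE 0.18, limma adjusted p = 0.0036) and Lamp2 by 1.03 (SE 0.14, adjusted p = 0.0052 in limma). The iron-permeable channel Mcoln1 (-0.37), Scarb2 (-0.13), Npc1 (0.07) and Cd68 (0.29) were not called. Within the V-ATPase the called subunits included the A and B subunits of V1, Atp6v1a (1.29, SE 0.15) and Atp6v1b2 (1.27, SE 0.14). The others were the stalk subunit Atp6v1e1 (0.87, SE 0.17) and the ring subunit Atp6v0c (0.80, SE 0.15). In this order, the limma adjusted p-values were 0.0026, 0.0026, 0.015 and 0.012. The unadjusted p was 0.026 for Atp6v0d1 and 0.03 for Atp6v1d, which miss the threshold after adjustment in limma (0.064 and 0.071). The subunits did not move as a block, since Atp6v1d was lower in both leukemia libraries (10.7 and 9.68) than in any macrophage library (11.7 to 15.4) and Atp6v0b overlapped. Tfeb (ENSMUSG00000023990, chr17:47737030-47792419, plus strand) fell by 1.78 (SE 0.15, limma adjusted p = 0.00094).

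**Figure D4:**
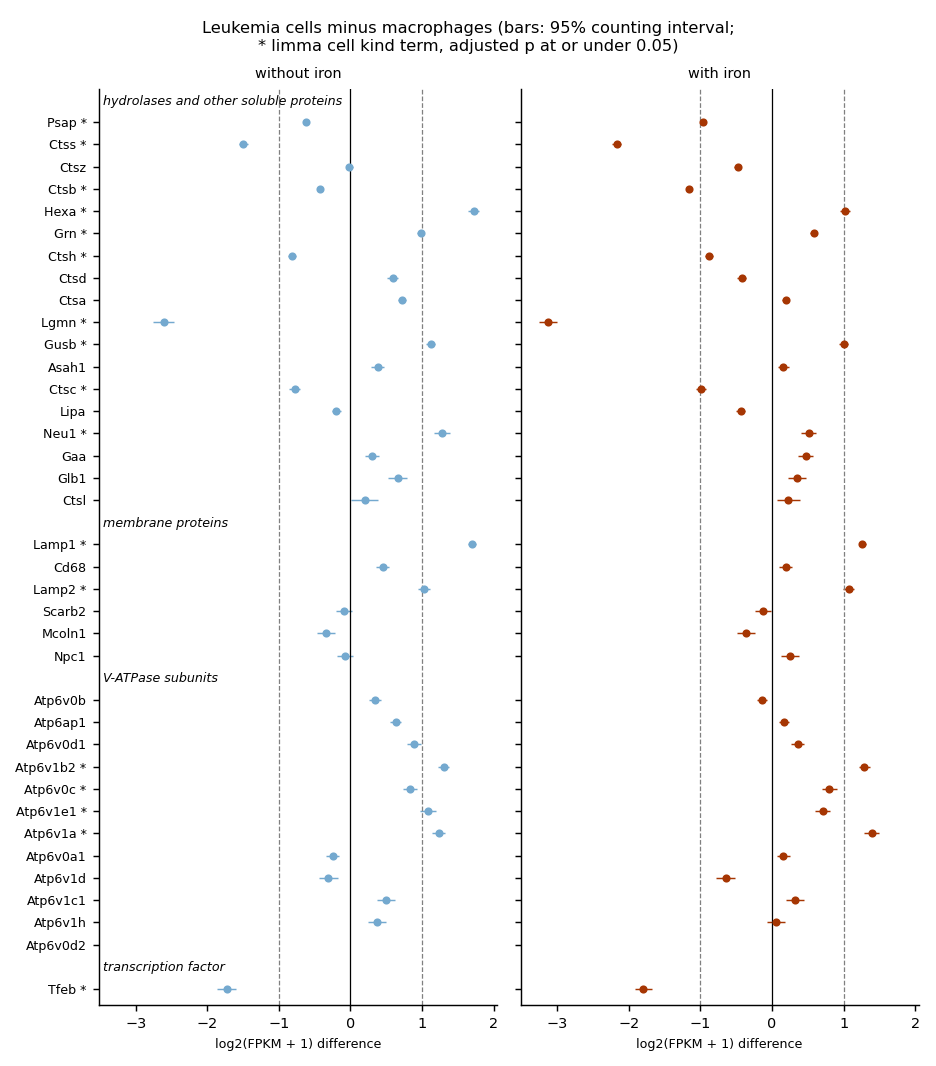
Difference in log2(FPKM + 1) between leukemia cells and macrophages of leukemic mice without iron (left) and with iron (right), for 36 members, with 95% counting intervals (1.96 SE) and dashed lines at a fold of 2. Asterisks mark the 17 members called by limma. Without iron these run from Lgmn at -2.61 to Hexa at 1.72, and with iron from Lgmn at -3.13 to Atp6v1a at 1.39.

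The members with a TCACGTG motif in the promoter did not stand apart in medians from those without it in the iron comparison of MA9 macrophages. The median log2 difference was 0.44 for the 10 with the motif (from -0.16 for Atp6v1a to 1.04 for Ctsd) and 0.43 for the 19 without it. Between leukemia cells and macrophages without iron the medians were 0.62 and 0.20, with wide ranges (-2.61 to 1.70 and -1.73 to 1.72). Lamp1 with its 4 cores was at the high end of the first and Lgmn with 1 core at the low end. Between leukemia cells and macrophages with iron the medians were closer, at 0.27 with the motif and 0.17 without it.

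Other genes of the lysosome gave a like picture in the iron comparison of MA9 macrophages, with smaller medians. Of 32 other soluble lysosomal proteins 25 exceeded their MA9 value in MA9/FE macrophages, 2 of them by a fold of 2, with a median log2 difference of 0.22. Of all genes 52.6% were higher there and 2.45% passed a fold of 2 in either direction. The phospholipase Pla2g15 went from 11.7 to 28.2 FPKM (1.24, SE 0.071), and from 12.4 to 19.0 between WT and WT/FE (0.57). The other past a fold of 2 was Acp5, tartrate-resistant acid phosphatase, which went from 48.2 to 95.9 FPKM (1.02, SE 0.044) and was at 75.6 in WT and 97.3 in WT/FE, and which is named because of this count. Ctse and Gla (alpha-galactosidase) exceeded their WT macrophage value in MA9 by a fold of 2 (1.18 and 1.12), a fold that 4.70% of all genes passed in either direction. Only 7 of the 32 were higher there by any amount, against 50.1% of all genes, and the median was -0.15. Gm2a, the activator of GM2 ganglioside hydrolysis, Ppt1, a thioesterase, and Man2b1, an alpha-mannosidase, had the highest mean levels of this list, and Gm2a and Ppt1 were lower in leukemia cells without iron (-1.13 and -1.52), and Man2b1 was at 0.51. Of the list, 19 of 32 were higher in leukemia cells without iron (median 0.44), against 49.3% of all genes. By a fold of 2, 3 were higher (against 7.41% of all genes) and 5 lower (against 12.6%).

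Of 13 other V-ATPase subunits 7 were tested, and 5 of the 7 exceeded their MA9 value in MA9/FE macrophages (median 0.22), with Tcirg1 (0.12), Atp6v1f (0.67) and Atp6v1g1 (0.59) at the highest levels. None reached a fold of 2 in any of the 7 comparisons. Of 15 other lysosomal membrane proteins 10 were higher (median 0.13, 0 by a fold of 2), led in level by Laptm5 (0.03), Laptm4a (0.46) and Cd164 (0.25). Of 15 MiT/TFE factors and nutrient sensors 12 were higher (median 0.21, 0 by a fold of 2), led in level by the Ragulator subunits Lamtor5 (0.48), Lamtor2 (0.64) and Lamtor4 (0.70). Of all genes 52.6% were higher between MA9/FE and MA9 macrophages. The 6 lysosomal sorting genes, mostly of the mannose 6-phosphate route, had a median of -0.06 with 3 higher, among them the receptor M6pr (0.09). In leukemia cells without iron, 3 of these 6 were higher than in MA9 macrophages by a fold of 2, against 7.41% of all genes. They were Gnptab (1.05) and Nagpa (1.38), which build and uncover the mannose 6-phosphate tag, and the sorting receptor Sort1 (2.02). Of 6 cathepsin inhibitors 4 were tested in the MA9 macrophage pair. Cst3 (cystatin C, 0.61), Cstb (0.60) and Cst7 (0.51) were higher and Stfa1, one of several near-identical stefin genes between which reads may be split, was at 9.69 in MA9 and 0.0876 in MA9/FE. It was at 127 and 64.1 in leukemia cells and at 0 in WT and WT/FE macrophages. The summed neutrophil markers went from 1789 to 907 between the same MA9 libraries, and their part was not tested.

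The genes Tfec, Slc11a1 and Cd63 of these lists, named after their values had been seen, differed widely between the kinds of cell. Tfec, a relative of Tfeb in the MiT/TFE family, was at 0.522 (WT), 0.968 (WT/FE), 0.610 (MA9) and 1.11 (MA9/FE) among the macrophages, against 15.0 and 13.9 for leukemia cells, the opposite order to Tfeb. Slc11a1, a metal transporter of the phagosome and lysosome membrane, was at 17.6, 31.7, 21.9 and 29.4 in macrophages and at 2.81 and 2.83 in leukemia cells. It was higher with iron in both macrophage pairs (0.80 and 0.45). Cd63, a tetraspanin of late endosomes and granules, was at 7.42, 5.08, 9.71 and 7.99 in macrophages and at 65.9 and 56.0 in leukemia cells.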

How the data were processed

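RNA of sorted mouse macrophages (4 libraries) and leukemia cells (2 libraries) was sequenced, and conditions were taken from the labels. The authors deposited FPKM for 54532 Ensembl genes. The submitters' processing notes name Bowtie2 2.2.5, RSEM and mm10. Strand is not given in the sources used here. Exon lengths and symbols came from GENCODE M21 (54495 genes). FPKM times exon length gave whole reads within 0.05 for 96.8% to 97.0% of values. The depth of 16085346 to 19518359 reads makes counting error small for most members, whereas variation between mice is unknown. Reads of Lipa and Npc1 were not whole, so both were left out of read shares and their counting SE is approximate.

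Each pair of libraries was scaled by TMM (coded by hand), log2(FPKM + 1) differences were computed from the deposited FPKM where a gene had 10 reads or more in either library, and a gene was counted past a fold of 2, without a test. The limma fits (limma 3.58.1, R 4.3.3, 10 reads or more in 2 libraries, Benjamini-Hochberg adjusted p at or under 0.05) were additive, for leukemia and iron in 4 macrophage libraries and for cell kind and iron in the 4 libraries of leukemic mice. Each fit holds 1 library per combination of its factors. Its 1 residual degree of freedom is the difference between 2 iron responses, so the p-values do not measure variation between mice. Alternatives were total scaling, TMM after leaving out hemoglobin and immunoglobulin genes, the median of ratios, a pseudocount of 0.1, no minimum of reads, at least 50 reads, and the trend on exon length removed (lowess). Steps were tested on simulated data.

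All members may be named. Values in all libraries are given for the 3 highest of each group, Tfeb, the d subunit isoforms, the 3 hydrolases with the largest difference past the fold in each comparison and members past the fold with iron in macrophages. Of other lists, the 3 highest genes and up to 3 past the fold in macrophages were named. Acp5, Sort1, Tfec, Slc11a1 and Cd63 were named in addition, after their values had been seen. The members and lists were chosen with earlier results of these data known. The software was scipy 1.17.1, statsmodels 0.14.6, numpy 2.4.6, matplotlib 3.10.9 and pandas 2.3.3 under Python 3.11.15.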

Additional observations from a re-analysis of the deposited data

Results flagged for a closer look

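The iron difference had opposite directions in the WT and MA9 macrophage pairs, each beyond 1.96 counting SE, for 8 of 36 members. All 8 were lower in WT/FE than in WT and higher in MA9/FE than in MA9 macrophages, also under each of the 7 alternatives. Opposite directions of this size were found for 22.2% of the members and 12.8% of 15810 genes, and lower then higher values for 22.2% and 8.92%. Counting SE is smaller for genes with more reads, so these shares depend on level. The MA9 difference minus the WT difference (log2) was 1.0 for Ctss, 0.69 for Atp6v0d1, 0.66 for Ctsc, 0.61 for Atp6v0b, 0.60 for Ctsz, 0.54 for Tfeb, 0.42 for Atp6v1d and 0.32 for Atp6v1c1. Between the MA9 pairs of macrophages and of leukemia cells, 7 of 36 members had opposite directions beyond 1.96 counting SE, also under each of the 7 alternatives. This was 19.4% of the members, against 7.38% of 14197 genes. The leukemia cell difference minus the macrophage difference was -0.81 for Neu1, -0.74 for Hexa, -0.57 for Atp6v0d1, -0.44 for Grn, -0.41 for Atp6v1e1 and -0.35 for Glb1, which were higher with iron in macrophages and lower in leukemia cells, and 0.37 for Atp6v0a1, which was the reverse. With 1 library per condition these differences between pairs were not tested against variation between mice.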

How the results depend on the processing

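No paired analysis was possible because each condition has 1 library, and leaving out a library leaves no residual degree of freedom. Depth limits Atp6v0d2 alone among the members. No named member changed sign in the comparisons where it was past the fold or called. The median of the membrane proteins in MA9/FE minus WT/FE macrophages, 0.01, was -0.03 with the median of ratios and -0.02 with total scaling, and that of the V-ATPase in MA9 minus WT macrophages, 0.00, lay between -0.02 and 0.01. The number of genes past a fold of 2 depended on low values. With a pseudocount of 0.1 it was 786 for WT/FE minus WT, 1497 for MA9/FE minus MA9, 1984 for MA9 minus WT and 2086 for MA9/FE minus WT/FE macrophages, 632 for iron in leukemia cells, and 5811 and 6498 for leukemia cells minus macrophages without and with iron. With no minimum of reads it was 479 for WT/FE minus WT, 731 for MA9/FE minus MA9 macrophages and 375 for iron in leukemia cells, and with at least 50 reads it was 115, 232 and 60. In place of 212, 404 and 133 genes for iron, these counts moved by over 1.5 times. With at least 50 reads the split for MA9/FE minus MA9 macrophages turned, from 199 higher and 205 lower to 126 and 106.

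Members past the fold in MA9/FE minus MA9 macrophages went from 1 to 0 with total scaling and with the length trend removed, since Ctsd lies at the threshold. With the length trend removed the median of the soluble proteins there was 0.56 and that of the membrane proteins 0.28, and the share of calls that were higher went from 49.3% to 39.8% (154 higher, 233 lower) there and from 65.4% to 55.0% (402 higher, 329 lower) in MA9/FE minus WT/FE macrophages. In WT/FE minus WT macrophages 18 of 36 members were higher with the length trend removed, in place of 22. The cause of these shifts was not tested.

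In limma, the leukemia term called 385 genes with total scaling, 318 with the median of ratios, 34 with a pseudocount of 0.1, 0 with no minimum of reads and 716 with at least 50 reads, in place of 188. The iron term called 2 genes with total scaling, 2 with the median of ratios and 26 with at least 50 reads, in place of 0. The cell kind term called 3008 genes with no minimum of reads, in place of 6145, and 8 members in place of 17. Those lost were Atp6v1e1, Ctsb, Ctsc, Ctss, Grn, Hexa, Lamp1, Neu1 and Psap, and Ctsb, Grn and Neu1 were lost with a pseudocount of 0.1 as well. The members called for the leukemia and iron terms stayed at 0 in the alternatives run.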
